A study of Homo sapiens with 4 samples.

Results

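The genes described here are 10 feedback and response genes of the RAS-ERK pathway: the Sprouty genes SPRY1, SPRY2 and SPRY4, the Spred genes SPRED1 and SPRED2, the ETS transcription factor genes ETV4 and ETV5, and PHLDA1, EPHA2 and NF1. They were chosen by name for their known place in this pathway, and all 10 are among the 26726 genes of the expression table. The RNA came from HN12, an established line of human head and neck squamous cell carcinoma (HNSCC). ATAD3A KO cells, in which the gene for the mitochondrial AAA ATPase ATAD3A had been targeted by CRISPR/Cas9, were compared with parental HN12 cells (WT), with 2 libraries in each group. The question was how gene expression differs once ATAD3A is lost. Both groups were untreated and grown in DMEM with 10% FBS according to the labels, and the methods describe the replicates as independent cultures. The KO cells were grown out from single targeted cells after selection, and whether the RNA came from 1 clone or from more is not given in the sources used here. A difference between KO and WT cells and a difference between a clone and its mixed parent population cannot be told apart in this design.

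Growth factor receptors load the small GTPase RAS with GTP, and RAS-GTP starts the kinase chain RAF, MEK and ERK. Active ERK raises the transcription of genes whose products slow the same chain. Sprouty proteins act between the receptor and RAF, Spred proteins bind neurofibromin (the product of NF1) and bring it to the plasma membrane, and neurofibromin is a GTPase activating protein that switches RAS off. ETV4 and ETV5 belong to the PEA3 group of ETS factors and are transcribed in response to ERK. PHLDA1 encodes a pleckstrin homology-like protein induced by growth factors. EPHA2 encodes a receptor tyrosine kinase for ephrin-A ligands that is a known ERK target in epithelial cells. The transcripts of several of these genes are widely read as a gauge of pathway output, whereas NF1 is listed for its action on RAS. However, no protein, phosphorylation or RAS-GTP was measured in these libraries.

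The libraries held 18943547 and 16805766 counts in KO 1 and KO 2, and 15173766 and 13569971 counts in WT 1 and WT 2. The targeted gene was checked first. ATAD3A had 702 and 492 counts in the KO libraries against 1802 and 1471 in the WT libraries. In RPKM (reads scaled by gene length and library total) it measured 14.2 and 11.2 in KO cells and 45.5 and 41.5 in WT cells. The groups were well apart in the direction of their labels, and the log2 fold change was -1.70 (SE 0.0907, adjusted p = 1.58e-17 by edgeR's quasi-likelihood test). ATAD3A transcripts were thus lowered rather than absent. The paper reports a complete loss of the protein by Western blot in the KO clones it used, and transcript levels do not measure protein. All log2 fold changes are KO over WT, and a gene is called higher or lower where its p, adjusted by the Benjamini-Hochberg method over all 15104 tested genes, was under 0.05.

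Squamous epithelial markers were present in all libraries, including TP63 (51.8 and 58.1 RPKM in KO, 69.4 and 70.4 RPKM in WT) and the basal keratin KRT5. KRT5 was much higher in KO cells, at 949 and 941 RPKM against 162 and 158 RPKM. Summed over the 12 markers, the level was 2390 and 2370 RPKM in KO and 1100 and 1120 RPKM in WT. Of 11 tested markers, 7 were higher and 4 lower, where 20.4% of all tested genes were higher and 19.1% lower. The higher ones were the keratins KRT5, KRT14, KRT6A, KRT16 and KRT17, with SFN and PERP. TP63 (log2 fold change -0.28), DSG3 (-1.12), DSP (-0.49) and CDH1 (-0.24) were lower. The most abundant marker was KRT5 in KO cells and SFN (430 and 448 RPKM) in WT cells. LY6D, with at most 3 counts in a library, was at the floor. Markers of other cell types were low. The fibroblast markers summed to between 1.75 and 2.58 RPKM (most abundant COL1A1) and the leukocyte markers to at most 2.05 RPKM (CD14). The neural markers summed to 3.42 and 3.85 RPKM in KO against 5.78 and 5.81 RPKM in WT (MBP). The endothelial markers summed to at most 0.409 RPKM, in WT 1, where CDH5 (0.24 RPKM) stood above VWF (0.0895 RPKM). By group mean VWF was the highest of them, at 0.128 RPKM in KO and 0.141 RPKM in WT. Among the defining genes, PTPRC had at most 9 counts in a library and CDH5 at most 15. The part that the shift in squamous markers has in the results below was not tested. In bulk RNA, fewer cells carrying a transcript and less of it per cell cannot be told apart.

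The feedback genes did not move as a block. SPRY4, ETV4 and EPHA2 were higher in KO cells, SPRED1, ETV5, PHLDA1 and NF1 were lower, and SPRY1, SPRY2 and SPRED2 were not called. All 10 passed the filter on low counts, so 3 of 10 (30.0%) were higher, where 20.4% of all tested genes were higher, and 4 of 10 (40.0%) were lower, where 19.1% were lower. With so few genes, these shares describe the members and no more. The median log2 fold change over the 10 genes was 0.12 against -0.0042 over all tested genes, and the median absolute change was 0.45 against 0.29. With the cut-offs of the study's methods (an unadjusted p together with a fold threshold in each direction), 4 were higher, SPRY2 being added, and 3 were lower, PHLDA1 being dropped, where 17.0% of all tested genes were higher and 12.2% lower by the same cut-offs.

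**Figure D1:**
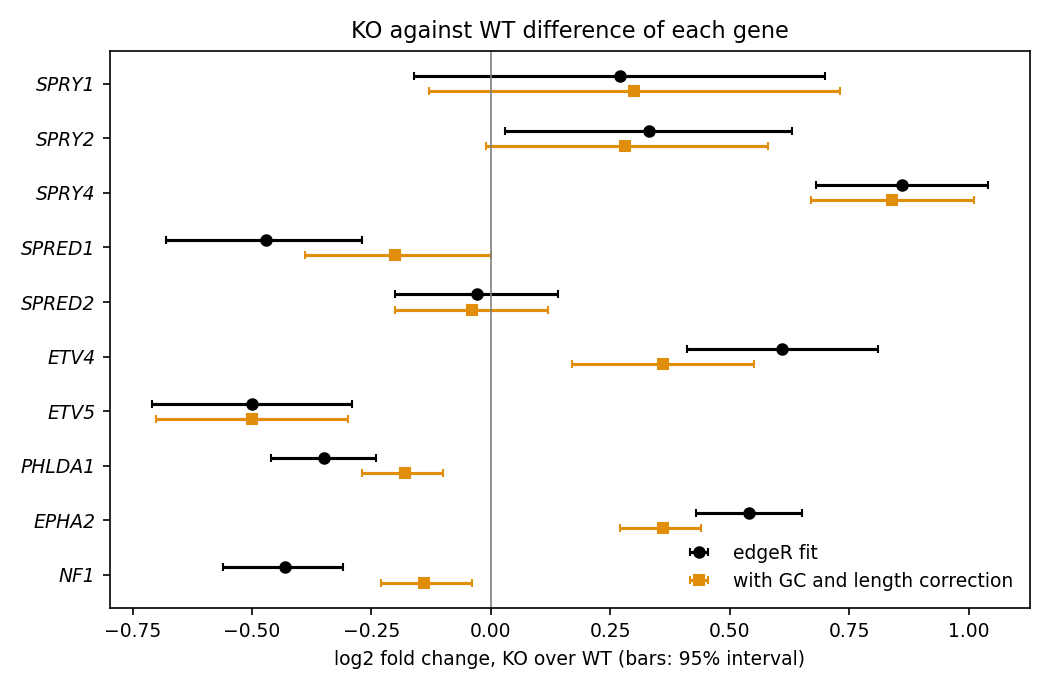
Log2 fold change of each of the 10 genes (KO over WT, horizontal axis) with its 95% interval, from the fit to counts and from the same fit with offsets for GC content and length. SPRY4 lies highest at 0.86 and ETV5 lowest at -0.50, and SPRED1, NF1, PHLDA1, ETV4 and EPHA2 move towards 0 with the correction.

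In RPKM the 2 KO values lay above both WT values for SPRY2, SPRY4, ETV4 and EPHA2 and below both for SPRED1, SPRED2, ETV5, PHLDA1 and NF1, and the groups overlapped for SPRY1. Of all tested genes, 28.7% lay apart in the higher and 40.0% in the lower direction on this scale. On TMM-scaled CPM the split over all genes was even, at 34.1% higher and 34.0% lower, and 5 of the 10 genes then lay apart in the higher and 4 in the lower direction, SPRY1 joining the first and SPRED2 leaving the second. A non-overlap between 2 and 2 libraries is therefore common in these data.

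The genes that were higher and those that were lower also differed in base composition. GC content, taken from the longest annotated transcript, was between 50.4% and 60.8% for the 3 that were higher. For the 4 that were lower it was between 38.9% and 48.6%. Gene lengths implied by the deposited counts and RPKM were, in the same order, between 2429 and 4938 nt and between 4111 and 12425 nt. Fold changes across all tested genes can follow GC content and length in such libraries, so the fit was repeated with offsets for both. Directions of the 7 called genes were kept, SPRED1 lost its call, and the changes of NF1, PHLDA1, ETV4 and EPHA2 shrank as given for each gene below. How much of the difference in composition is technical was not tested.

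**Figure D2:**
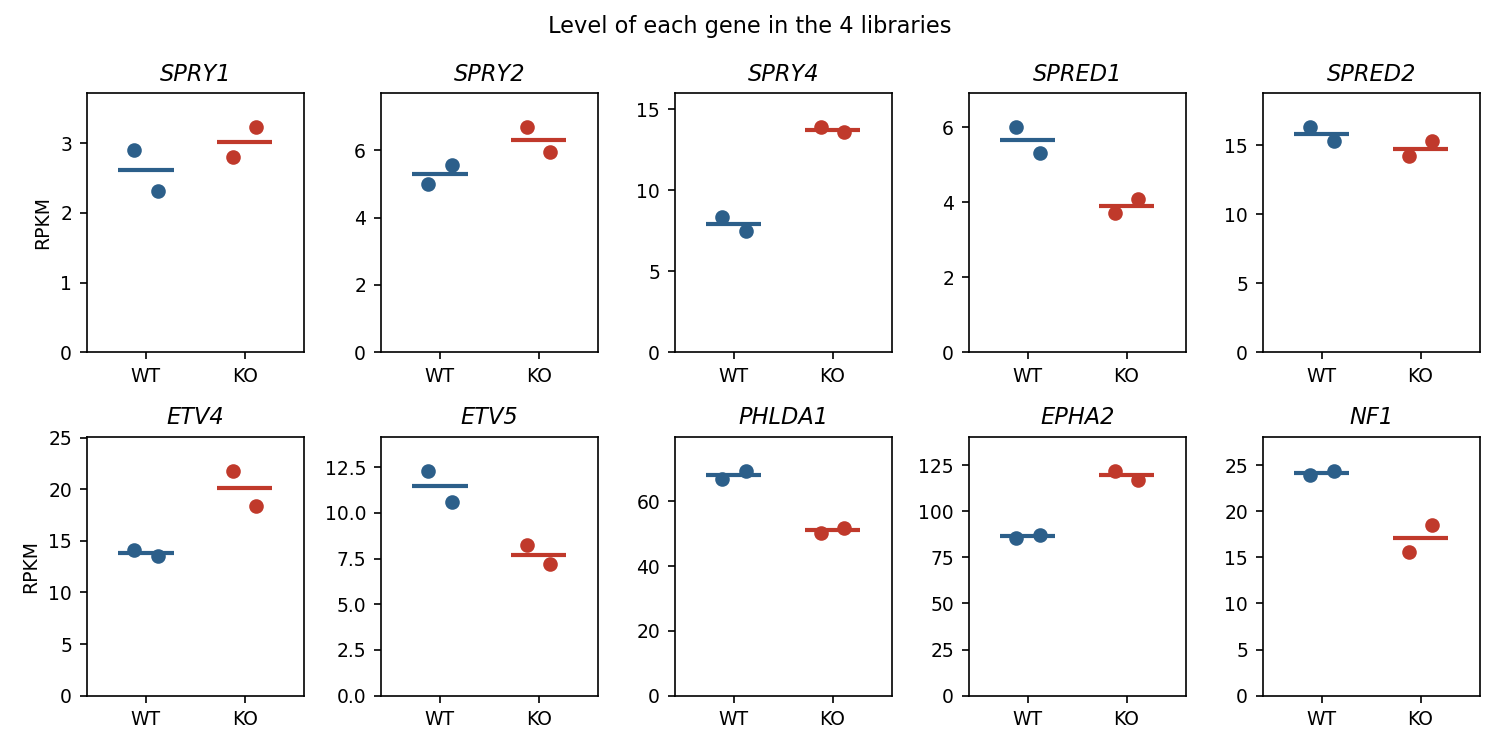
RPKM of the 10 genes in each library, WT on the left and KO on the right, 1 panel per gene with its own vertical axis from 0, points for libraries and a bar for the group mean. KO points sit above WT points in 4 panels, below in 5, and are mixed for SPRY1.

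Of the Sprouty genes, SPRY4 carried the rise. SPRY4 (chr5:142310427-142326455, minus strand, GRCh38), whose product inhibits RAS activation downstream of growth factor receptors, measured 13.9 and 13.6 RPKM in KO cells and 8.37 and 7.51 RPKM in WT cells. Both KO libraries lay far above both WT libraries relative to the spread within a group. The log2 fold change was 0.86 (SE 0.0891, 95% interval 0.68 to 1.04, adjusted p = 6.19e-10), a fold of 1.82. It was 0.84 with the GC and length offsets and between 0.72 and 0.95 over the alternatives tried.

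SPRY2 (chr13:80335976-80340951, minus strand), which binds the ubiquitin ligase CBL and the adaptor GRB2, measured 6.69 and 5.95 RPKM in KO cells and 4.99 and 5.58 RPKM in WT cells. The KO values were the higher ones, with a small gap between KO 2 and WT 2. The log2 fold change of 0.33 (95% interval 0.03 to 0.63) missed the threshold after adjustment, with adjusted p = 0.0704. SPRY1 (chr4:123396795-123403760, plus strand), a Sprouty gene of low level here, had 133 and 136 counts in KO cells and 110 and 79 counts in WT cells. Its RPKM values were 2.80 and 3.23 against 2.90 and 2.32, so that KO 1 fell below WT 1. The log2 fold change was 0.27 with an interval from -0.16 to 0.70 (adjusted p = 0.336), which includes both no change and a rise like that of SPRY2. It was 0.12 without WT 2 and 0.45 without WT 1.

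SPRY3, the remaining family member, was scarce at 0.269 and 0.330 RPKM in KO and 0.402 and 0.327 RPKM in WT, with a log2 fold change of -0.22 (adjusted p = 0.656). Summed over the 4 Sprouty genes, the level was 23.6 and 23.1 RPKM in KO cells and 16.7 and 15.7 RPKM in WT cells, or 23.4 ± 0.371 against 16.2 ± 0.648 (mean ± SD, n = 2 each), a ratio of 1.44. SPRY4 supplied 58.7% and 58.8% of this sum in KO and 50.2% and 47.7% in WT. The family's summed message was thus larger in KO cells, and its largest part was SPRY4 in all 4 libraries.

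The Spred genes and NF1, whose proteins work as a complex on RAS, were either lower or not called. SPRED1 (chr15:38252326-38357249, plus strand) measured 3.70 and 4.08 RPKM in KO cells and 6.0 and 5.32 RPKM in WT cells. Both KO values were lower, and the log2 fold change was -0.47 (SE 0.103, 95% interval -0.68 to -0.27, adjusted p = 0.000289), a fold of 0.720. With the GC and length offsets the change was -0.20 and the call was lost (adjusted p = 0.12).

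SPRED2 (chr2:65310851-65432637, minus strand) was the more abundant Spred gene, at 14.2 and 15.3 RPKM in KO and 16.3 and 15.3 RPKM in WT. The KO 2 and WT 2 values were nearly the same, and the log2 fold change was -0.03 with an interval from -0.20 to 0.14 (adjusted p = 0.81). Its sign turned without KO 1 (0.02) and without WT 1 (0.03). SPRED3 was low, with 1.68 and 1.35 RPKM in KO against 0.856 and 1.58 RPKM in WT, and a log2 fold change of 0.40 (adjusted p = 0.49) that was 0.03 without WT 1 and 0.89 without WT 2. The summed Spred level was 20.2 ± 0.788 RPKM in KO and 22.7 ± 0.662 RPKM in WT, a ratio of 0.889, and SPRED2 made up between 68.9% and 73.8% of it in every library.

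NF1 (chr17:31094927-31382116, plus strand), the RAS GTPase activating protein that Spred proteins recruit, measured 15.6 and 18.5 RPKM in KO cells and 23.9 and 24.4 RPKM in WT cells. Both KO libraries lay below the WT pair, and KO 1 lay lowest. The log2 fold change was -0.43 (SE 0.062, 95% interval -0.56 to -0.31, adjusted p = 4.86e-07), a fold of 0.740. With the GC and length offsets it was -0.14 (adjusted p = 0.0255), so the direction and the call were kept at a smaller size. NF1 has the greatest gene length of the 10 genes, at 12425 nt as implied by the deposited counts and RPKM. A heat map of these same libraries in the study also shows SPRED1 and NF1, so their lower values here are not independent evidence of that direction.

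The PEA3 factors moved in opposite directions. ETV4 (chr17:43527844-43579620, minus strand) measured 21.8 and 18.4 RPKM in KO cells and 14.1 and 13.5 RPKM in WT cells. Both KO values were the higher ones, and the log2 fold change was 0.61 (SE 0.10, 95% interval 0.41 to 0.81, adjusted p = 5.6e-06), a fold of 1.53. With the GC and length offsets it was 0.36 (adjusted p = 0.00286).

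ETV5 (chr3:186046308-186110318, minus strand) measured 8.22 and 7.21 RPKM in KO cells and 12.3 and 10.6 RPKM in WT cells, so here the KO values were the lower ones. Its log2 fold change was -0.50 (SE 0.103, 95% interval -0.71 to -0.29, adjusted p = 0.000154), a fold of 0.707, and it was also -0.50 with the offsets. ETV1, the third gene of the group, fell with it, from 7.08 and 6.82 RPKM in WT to 3.73 and 3.92 RPKM in KO (log2 fold change -0.79, SE 0.102, adjusted p = 5.89e-08; -0.52 with the offsets). The sum over ETV1, ETV4 and ETV5 overlapped between the groups, at 33.7 and 29.6 RPKM in KO and 33.5 and 31.0 RPKM in WT. What differed was its make-up: ETV4 supplied 64.5% and 62.4% of the sum in KO cells and 42.2% and 43.7% in WT cells.

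**Figure D3:**
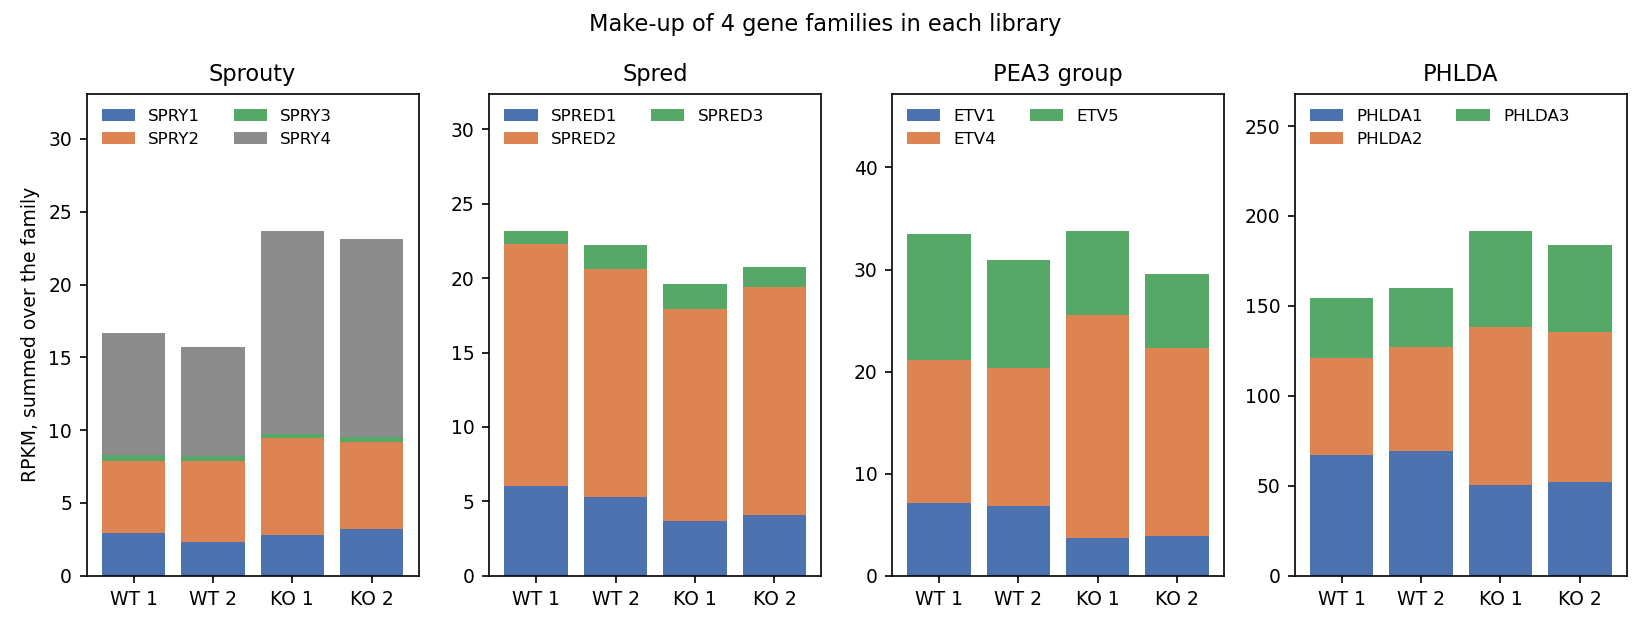
Stacked RPKM of the Sprouty, Spred, PEA3 and PHLDA gene families in each library (vertical axis RPKM, from 0), with 1 colour per gene. The PEA3 bars have overlapping heights in KO and WT but ETV4 takes 62.4% or more of them in KO and at most 43.7% in WT, and the PHLDA1 part of the PHLDA bars is smaller in KO.

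PHLDA1 (chr12:76025447-76033932, minus strand) was the second most abundant of the 10 genes. It measured 50.2 and 51.9 RPKM in KO cells and 67.1 and 69.5 RPKM in WT cells. The libraries of a group differed little from each other, and the log2 fold change was -0.35 (SE 0.0519, 95% interval -0.46 to -0.24, adjusted p = 1.01e-06), a fold of 0.785. With the GC and length offsets it was -0.18 (adjusted p = 0.000885).

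The other members of the PHLDA family went the other way. PHLDA2, an imprinted growth regulator of the placenta, measured 88.3 and 83.4 RPKM in KO and 54.2 and 57.7 RPKM in WT, with a log2 fold change of 0.69 (adjusted p = 1.02e-08). PHLDA3, a p53 target that inhibits AKT, measured 53.0 and 48.3 RPKM in KO and 33.3 and 32.5 RPKM in WT, likewise with a log2 fold change of 0.69 (adjusted p = 1.62e-08). With the offsets the changes were 0.27 and 0.40. PHLDA1 accordingly made up 26.2% and 28.3% of the family's summed RPKM in KO cells and 43.4% and 43.5% in WT cells.

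EPHA2 (chr1:16124337-16156087, minus strand) had the highest level of the 10 genes, at 122 and 117 RPKM in KO cells and 85.6 and 87.4 RPKM in WT cells. Both KO libraries lay clearly above the WT pair. The log2 fold change was 0.54 (SE 0.0531, 95% interval 0.43 to 0.65, adjusted p = 1.95e-10), a fold of 1.45, and 0.36 with the GC and length offsets (adjusted p = 2.58e-08).

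By level per length, the order in KO cells was EPHA2 (120 ± 3.58 RPKM, SD, n = 2), PHLDA1 (51.1 ± 1.18), ETV4 (20.1 ± 2.34), NF1 (17.0 ± 2.0), SPRED2 (14.8 ± 0.757), SPRY4 (13.7 ± 0.199), ETV5 (7.71 ± 0.714), SPRY2 (6.32 ± 0.517), SPRED1 (3.89 ± 0.263) and SPRY1 (3.02 ± 0.303 RPKM). The values of ETV4 and NF1 overlapped, so these neighbours do not differ beyond their spread. In WT cells EPHA2 (85.6 and 87.4 RPKM) and PHLDA1 (68.3 ± 1.74) again led, followed by NF1 (24.2 ± 0.389), SPRED2 (15.8 ± 0.697), ETV4 (13.8 ± 0.408), ETV5 (11.4 ± 1.18), SPRY4 (7.94 ± 0.609), SPRED1 (5.66 ± 0.477), SPRY2 (5.28 ± 0.417) and SPRY1 (2.61 ± 0.403 RPKM), and only SPRED1 and SPRY2 overlapped among neighbours. In both WT libraries ETV4 stood below SPRED2 and SPRY4 below ETV5 in RPKM, and in both KO libraries above them.

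The rest of the pathway was read from 10 lists of 108 genes, of which 103 are in the table and 90 were tested. ETV3L, FEV, SPIC, ELF5 and RASAL3 were not analysed here. Over the 10 lists, 33 tested genes (36.7%) were higher, 19 (21.1%) lower and 38 not called, with a median log2 fold change of 0.05. Of all tested genes, 20.4% were higher and 19.1% lower, so the lower share of the lists was near that of all genes. The counts given for each list below are to be read beside these shares.

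Other genes that ERK signalling is known to raise were nearly all higher. Of 10, 9 were higher and IER3 was lower, with a median log2 fold change of 0.66. DUSP4, a nuclear phosphatase of ERK, measured 36.8 and 34.8 RPKM in KO cells and 11.6 and 13.0 RPKM in WT cells. This was a log2 fold change of 1.61 (SE 0.0685, adjusted p = 2.22e-20) and a fold of 3.05. DUSP6, the cytoplasmic ERK phosphatase, rose by 0.75 on the log2 scale (adjusted p = 1.0e-11) and MYC by 0.84. The AP-1 gene FOSL1 rose by 0.62, at 264 and 254 RPKM against 180 and 174 RPKM. It was the most abundant of the list in KO cells, while in WT cells IER3 (255 and 245 RPKM) stood above it. CCND1 (cyclin D1) rose by 0.40. For ATAD3A KO HN12 cells the paper reports lower ERK phosphorylation and no noticeable change in cyclin D1 protein. The RNA values given here measure neither.

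The immediate early genes EGR1 and FOS were scarce. EGR1 measured 3.72 and 4.70 RPKM in KO against 2.35 and 3.08 RPKM in WT (log2 fold change 0.70, adjusted p = 0.0019), and FOS 1.59 and 1.02 RPKM against 0.611 and 0.717 RPKM (log2 fold change 1.05, adjusted p = 0.0413). The phosphatase genes DUSP5 and DUSP7 rose by 0.31 and 0.34 on the log2 scale (adjusted p = 0.00275 and 0.00148). IER3, an immediate early gene also driven by NF-kB, was lower with a log2 fold change of -0.38 (adjusted p = 1.38e-06). With the GC and length offsets 6 of the 10 were higher, DUSP5 (0.14), DUSP7 (0.16) and FOS (0.90) losing their calls, and the median was 0.47, while FOSL1 was at 0.33 and IER3 at -0.67. Without WT 1 the calls of DUSP7 (0.22), EGR1 (0.53) and FOS (0.95) were lost, and that of FOS was also lost without KO 1 (0.69) or WT 2 (1.16). In all, FOS lost its call in 8 of 14 alternatives, among them DESeq2 (adjusted p = 0.192), library totals (adjusted p = 0.0565) and both limma fits, DUSP7 in 4 and EGR1 in 3. The list had 6 higher under both limma fits too.

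**Figure D4:**
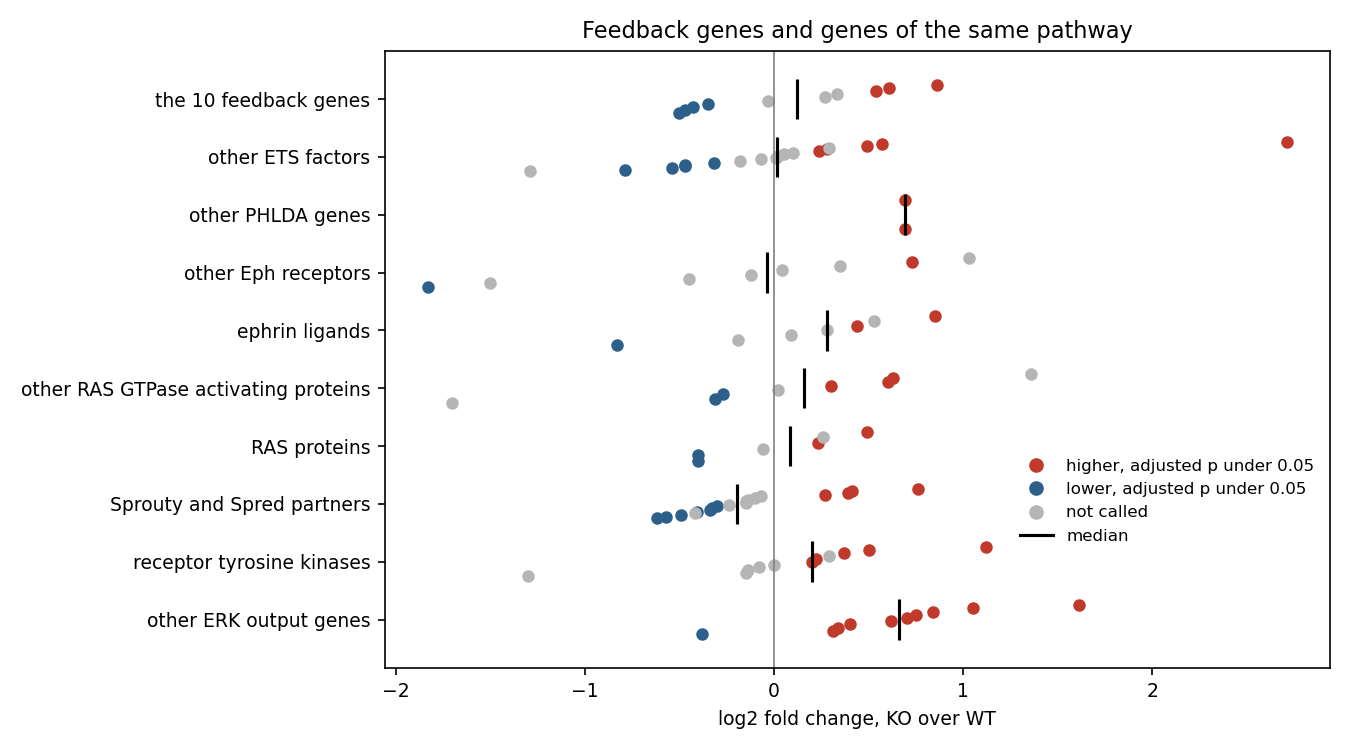
Log2 fold change (KO over WT, horizontal axis) of each tested gene of the pathway lists (without SPRY3 and SPRED3) and of the 10 feedback genes, 1 row per list, coloured by call, with a line at the median of the list. The ERK output row lies to the right of 0 but for IER3, while the rows of ETS factors, RAS proteins and Sprouty and Spred partners spread to both sides.

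Of the other ETS factors 5 were higher, 5 lower and 8 not called among 18 tested of 26, with a median log2 fold change of 0.02. The count differed between settings, with 3 higher and 6 lower by library totals (median -0.05) and 3 and 5 with DESeq2 and both limma fits. DESeq2 size factors within edgeR left it at 5 and 5. Without WT 2 the median was -0.04. ERG, an ETS factor best known from endothelium and from prostate cancer fusions, rose the most but from a low level, with 1.91 and 2.07 RPKM in KO and 0.380 and 0.249 RPKM in WT (log2 fold change 2.71, SE 0.269, adjusted p = 2.13e-10). The endothelial markers were at most 0.409 RPKM in sum. ETV1 fell the most, as given above. EHF, a factor of epithelia, was the most abundant of the list in WT cells. In KO cells ETS2 (53.3 and 54.7 RPKM) stood above EHF (44.8 and 46.8 RPKM). EHF was lower by a log2 fold change of -0.32 (adjusted p = 3.98e-05, and -0.20 with the offsets). ETS genes other than ETV4 and ETV5 thus also lay on both sides of 0.

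Receptors and ligands around EPHA2 showed single changes. Among the other Eph receptors 1 was higher, 1 lower and 6 not called of 8 tested (median -0.04). That median was 0.35 with DESeq2, 0.36 with no filter and 0.20 with at least 10 counts in every library, which keep other sets of genes, and 0.04 without KO 1 and 0.09 without WT 1. The calls were 1 higher and 0 lower with DESeq2, 1 and 2 with no filter, 2 and 0 with at least 10 counts, and 2 and 2 by the exact test. EPHB2 rose by 0.73 on the log2 scale (adjusted p = 1.85e-07), and EPHB4, the next most abundant Eph receptor after EPHA2, had a log2 fold change of 0.04, whose sign turned under 4 of the alternatives. EPHA3 had 3 and 16 counts in KO and 25 and 33 in WT, and its lower call was lost with DESeq2 and with both limma fits, and without KO 1 (-1.02) or without WT 2 (-1.53), while without KO 2 it was -3.55. Of 7 tested ephrins 2 were higher and 1 lower (median 0.28, but -0.02 without KO 1 and 0.48 without KO 2). EFNB1 was higher at 84.7 and 79.7 RPKM against 48.0 and 47.9 RPKM (log2 fold change 0.85, adjusted p = 2.25e-14), and EFNB2 lower at 39.9 and 39.5 RPKM against 72.9 and 74.9 RPKM (log2 fold change -0.83, adjusted p = 1.19e-14). Both are ephrin-B ligands. EFNA1, an ephrin-A ligand of the class that EPHA2 mainly binds, was the other ephrin called higher, at 19.0 and 18.2 RPKM against 14.9 and 13.8 RPKM (log2 fold change 0.44, adjusted p = 0.000989), and is named here after its values were seen. It lost its call with the offsets, where 1 ephrin was higher.

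Among RAS GTPase activating proteins other than NF1, 3 were higher, 2 lower and 3 not called of 8 tested (median 0.16), and without WT 1 or with DESeq2 0 were lower. RASA3 rose by 0.63 on the log2 scale (adjusted p = 1.89e-07) and RASAL2, the most abundant, by 0.30 (adjusted p = 0.000177; 0.59 with the offsets, and not called by limma on log2(RPKM + 1), at 0.21, or on log2(RPKM + 0.1), at 0.23). The 6 RAS genes had 2 higher, 2 lower and 2 not called (median 0.08), and 0 were higher without KO 1, with DESeq2 or with the offsets. RRAS was higher by 0.49 on the log2 scale (adjusted p = 0.00969; 0.06 and not called with the offsets), a call also lost with DESeq2 and without KO 1 (0.37) or WT 2 (0.33). HRAS, the most abundant, was called higher at 0.23 and called lower at -0.22 with the offsets, and its call was lost in 6 of 14 alternatives, among them without KO 1 (0.16) or WT 1 (0.19), so no direction is given for it.

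Of 18 binding partners of Sprouty and Spred proteins 4 were higher, 7 lower and 7 not called (median -0.20). Without KO 1 the count was 4 higher and 4 lower, and without WT 1 it was 3 higher and 5 lower. CBLC, an epithelial relative of CBL, rose by 0.76 on the log2 scale (0.38 with the offsets), the docking protein gene GAB2 had a log2 fold change of -0.62, and CAV1 (caveolin 1), the most abundant at 738 and 731 RPKM against 589 and 586 RPKM, rose by 0.39. Of 11 tested receptor tyrosine kinases outside the Eph family 5 were higher and 0 lower at this threshold (median 0.20). Without KO 2 the count was 3 higher and 1 lower and without WT 2 it was 3 higher, as with library totals, while limma gave 3 or 2 higher and the offsets 5 higher and 1 lower. FGFR1 rose by 1.12 on the log2 scale (adjusted p = 0.0012), a call lost without KO 1 (0.84) and by limma on log2(RPKM + 0.1). EGFR, the main growth factor receptor of squamous cells, measured 91.6 and 104 RPKM in KO and 102 and 104 RPKM in WT, and its log2 fold change of -0.00 (adjusted p = 0.967) became 0.11 with the offsets and was then called higher.

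Genes lying beside the 10 genes were examined for shifts of whole regions, taking the 5 nearest tested genes on each side. ETV5 had 4 lower, 0 higher and a median log2 fold change of -0.36 over a span of 1.2 Mb, against -0.50 for ETV5 itself. EPHA2 had 2 higher, 0 lower and a median of 0.18, against 0.54, and SPRY4 had 4 higher and 0 lower but a median of 0.03, against 0.86. The neighbours of SPRED1 (median -0.12, 2 lower), PHLDA1 (-0.14, 3 lower and 1 higher), NF1 (0.00, 1 higher) and ETV4 (0.01, 1 higher) lay nearer to 0 than the gene between them. The neighbours of SPRY1 and SPRY2 spanned 5.69 and 16.7 Mb, with medians of -0.37 and -0.28. Of them, 3 were lower and 1 higher for SPRY1 and 4 were lower for SPRY2. The values of SPRY1 and SPRY2 themselves were positive. SPRED2's neighbours had a median of -0.09. No copy number was measured, and the part of regional shifts was not tested.

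Taking for each of the 10 genes the neighbour with the greatest absolute change, those called were DGKG beside ETV5 (log2 fold change -2.22, adjusted p = 0.00117), SLAIN1 near SPRY2 (-1.43, adjusted p = 7.14e-05), RSG1 near EPHA2 (1.09, adjusted p = 0.00189), RP11-54A9.1 near PHLDA1 (0.94, adjusted p = 0.00332) and SLC1A4 near SPRED2 (0.61, adjusted p = 0.000816). DGKG without WT 2 (-1.76) and RP11-54A9.1 without KO 1 (0.71) or WT 1 (0.62) were no longer called, nor were RP11-54A9.1 with DESeq2 and SLC1A4 with both limma fits, and SLAIN1 was at -2.08 without KO 1. PCDH12 near SPRY4 (-1.34), RASGRP1 near SPRED1 (-0.91), RP11-848P1.2 near NF1 (0.91), MPP2 near ETV4 (-0.77) and INTU near SPRY1 (-0.71) did not pass the threshold in the fit as reported. INTU ranged from -0.12 without WT 1 to -1.10 without WT 2, where it was called. PCDH12 was called with edgeR's exact test (adjusted p = 0.036), with library totals (adjusted p = 0.043) and with at least 10 counts in every library (adjusted p = 0.0149).

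**Figure D5:**
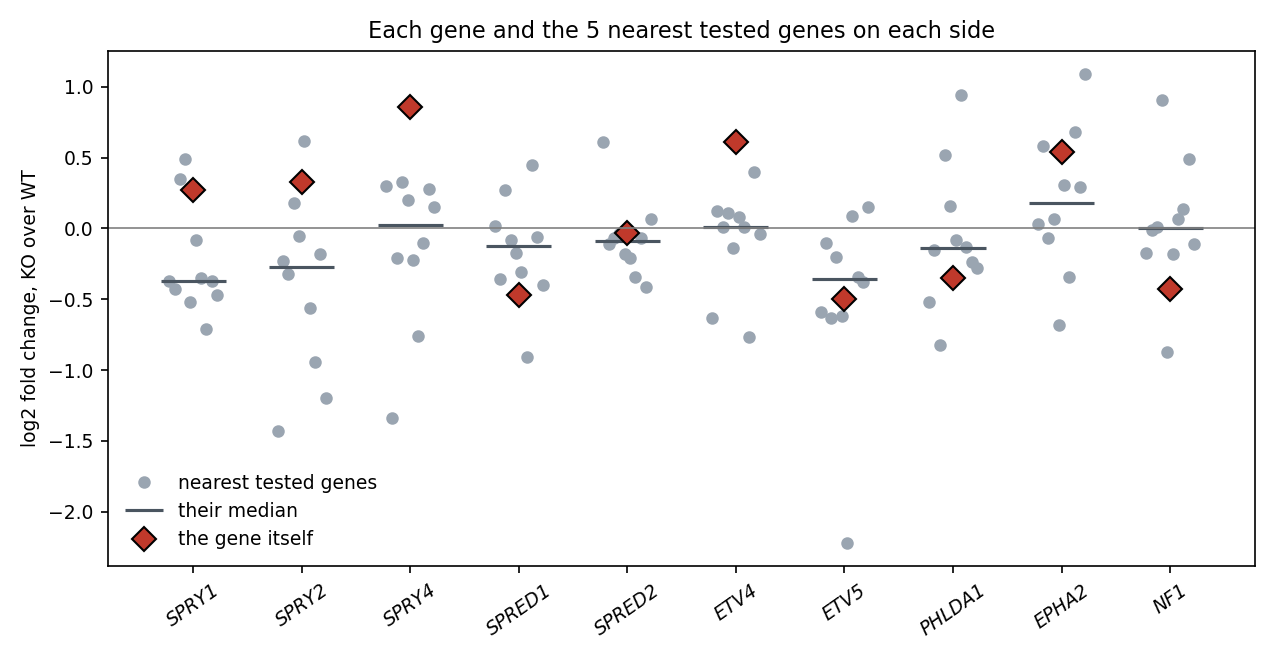
Log2 fold change (KO over WT, vertical axis) of each of the 10 genes and of its 5 nearest tested genes on either side, 1 column per gene, with the median of the neighbours as a line. The neighbours of ETV5 have a median of -0.36 and those of SPRY2 one of -0.28, while those of NF1 and ETV4 have medians of 0.00 and 0.01.

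Several of the 10 genes share ground with other annotated genes, and the sources used here do not say whether counting used strand. DHX8, an RNA helicase gene on the opposite strand from ETV4, had 1990 and 1851 counts in KO and 1917 and 1671 in WT, with a log2 fold change of -0.14 (adjusted p = 0.0816), so its counts did not follow those of ETV4. DGKG, which overlaps ETV5 on the same strand, had 9 and 10 counts in KO and 29 and 46 in WT, few beside the 640 and 498 counts of ETV5 in KO and the 766 and 592 in WT. The antisense gene of SPRY4, SPRY4-AS1, had between 14 and 24 counts in a library and the antisense gene at EPHA2, RP11-276H7.2, between 16 and 33. Of the genes inside NF1, OMG had between 9 and 13 counts, EVI2B between 10 and 27 and EVI2A between 0 and 9, and the NF1 pseudogenes NF1P2 and RP11-597A11.1 had at most 2 and 1 counts, so reads assigned to these copies were few next to the 3677 and 3854 counts of NF1 in KO and the 4502 and 4119 in WT.

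For 8 of the 10 genes, the tested gene is given that had the most similar pattern over the 4 libraries by Euclidean distance between centred log2 CPM values. These were FAM86C1 for SPRED2 (distance 0.0057), CUL5 for PHLDA1 (0.00849), LYRM9 for SPRY1 (0.0219), CLCN3 for SPRED1 (0.023), PLEKHG3 for SPRY2 (0.0247), CWC27 for ETV5 (0.0288), PRKAR1B for ETV4 (0.0297) and the Notch target HES1 for SPRY4 (0.041). HES1 itself measured 10.1 and 9.88 RPKM in KO and 5.85 and 5.37 RPKM in WT. With 4 libraries this likeness is a description only. None of the 10 had another of the 10 as its nearest gene.

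Promoter sequence was searched for letters bound by factors of this pathway: CCGGAAG for ETS factors, TGANTCA for AP-1 and TGACGTCA for CREB, on both strands of the 250 bases before each RefSeq start (GRCh38.p14). Windows were found for 8 of the 10 genes, 12 windows in all, and ETV4 and ETV5 had none in the table. CCGGAAG lay in 1 window, at a second start of SPRY1, and in 8.52% of all 35116 windows. TGANTCA lay in 0 of the 12 windows and in 6.57% of all. TGACGTCA lay in 2 windows, those of EPHA2 and NF1, and in 1.65% of all. These last are shown because EPHA2 was higher and NF1 lower in KO cells while both hold the same 8 letters, in capitals below. Each sequence is the portion of the window outside the annotated gene, read 5′ to 3′ on the strand of the gene, for EPHA2 chr1:16156088-16156319 on the minus strand and for NF1 chr17:31094727-31094926 on the plus strand.
EPHA2: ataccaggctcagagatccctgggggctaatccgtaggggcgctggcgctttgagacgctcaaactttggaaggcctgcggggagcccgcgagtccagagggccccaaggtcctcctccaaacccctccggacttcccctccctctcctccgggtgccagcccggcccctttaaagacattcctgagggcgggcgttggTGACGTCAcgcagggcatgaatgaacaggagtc
NF1: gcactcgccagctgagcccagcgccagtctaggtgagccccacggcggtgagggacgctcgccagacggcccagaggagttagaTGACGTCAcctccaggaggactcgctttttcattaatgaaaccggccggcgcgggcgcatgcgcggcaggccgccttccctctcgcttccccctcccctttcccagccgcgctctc
A match of letters is a description and no measurement of binding, and no factor binding was measured in these cells.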

How the data were processed

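RNA-seq libraries of 2 ATAD3A KO and 2 parental HN12 cultures were grouped by the labels' titles and genotypes. Libraries were made from 1 ug of total RNA with a NEBNext Ultra II kit. The submitters' processing notes name CASAVA, STAR 2.5, HTSeq, edgeR 3.16.5, DESeq2 and hg19, with no role or order, and the annotation and use of strand are not given in the sources used here. The authors deposited raw read counts per gene and RPKM values side by side. That the second set is RPKM was worked out from the values: the gene length they imply differed by at most 1.82e-05% between libraries. Replicate pairs differed by more than counting noise (chi-square per degree of freedom 4.2 for KO and 3.36 for WT).

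Deposited counts were filtered with filterByExpr (15104 of 26726 genes kept), scaled by TMM (factors 0.975 to 1.03) and tested with glmQLFit and glmQLFTest of edgeR 4.0.16 in R 4.3.3, with group as the only term and Benjamini-Hochberg adjustment over all tested genes. The biological coefficient of variation was 5.88%. A standard error is the absolute log2 fold change over the square root of F, and 95% intervals from the fit's degrees of freedom. Levels are deposited RPKM, as mean ± SD over 2 libraries. A count of 3 was taken as the floor, or 0.158 and 0.179 CPM in KO 1 and KO 2 and 0.198 and 0.221 CPM in WT 1 and WT 2. Depth covers counting error only and limits scarce genes such as EPHA3. Gene positions, GC content and overlaps came from GENCODE 29 (GRCh38), matched by Ensembl identifier for 25550 genes, whereas the processing notes name hg19. GC content was known for 97.2% of tested genes, and its correction used splines with 4 degrees of freedom as offsets. The test was tried on simulated data first.

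The 10 genes, the pathway lists and the markers were chosen with earlier results of these data known, so no list was tested as a set. Genes named are the 10, ATAD3A, from each pathway list the called gene with the largest rise, that with the largest fall and the most abundant one, every gene of lists of at most 2 and of the ERK output list, overlapping genes and namesakes, the neighbour with the largest change, and the nearest pattern. A few genes that this rule names are not reported here. KRT5, TP63, PTPRC and CDH5 are from the fixed marker lists and were singled out after their values were seen. Alternatives tried were the exact test of edgeR, DESeq2 1.42.0 and its size factors within edgeR, scaling to library totals, dropping the filter or asking for 10 counts per library, the replicate number as a block, limma 3.58.1 on log2(RPKM + 1) and log2(RPKM + 0.1), the GC and length offsets, the study's cut-offs and leaving out each library.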

Additional observations from a re-analysis of the deposited data

How the results depend on the processing

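Over 54 named genes and 14 alternative settings, 687 of 752 values kept both their direction and their side of the threshold, 49 lost the call, 4 gained one and 12 changed sign. Among the 10 feedback genes, between 3 and 4 were lower and between 3 and 4 higher under every setting run, and the median log2 fold change lay between 0.02 and 0.14. Leaving out 1 library at a time gave 4 lower and 3 higher each time. Over the pathway lists, leaving out 1 library gave between 14 and 21 lower and between 27 and 32 higher calls, against 19 and 33. Library totals gave 22 lower and 27 higher, limma 15 lower and 24 or 23 higher, DESeq2 14 lower and 27 higher, the offsets 17 lower and 27 higher, and the study's cut-offs 13 lower and 27 higher. A group cut to 1 library is assumed to vary like the other.

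The values that changed sign were small but for HRAS. EGFR was at 0.01 with no filter and 0.11 with the GC and length offsets, and leaving out 1 library moved it between -0.10 (without KO 2) and 0.08 (without KO 1), with 0.01 without WT 2. EPHB4 was at -0.03 with library totals, -0.02 on log2(RPKM + 1), -0.03 on log2(RPKM + 0.1) and -0.13 with the offsets. HRAS was at -0.22 with the offsets, SPRY3 at 0.03 with the offsets, and leaving out 1 library moved SPRED2 between -0.08 (without KO 2) and 0.03 (without WT 1), with 0.02 without KO 1, while its lowest value was -0.10 with library totals. The cause was not tested.

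Same-numbered KO and WT libraries did not deviate together over the tested genes (r = -0.0217). Counting noise in scarce genes draws such a value towards 0, so it cannot exclude a batch shared by same-numbered libraries. With the replicate block, 5820 genes were called in place of 5965, the 10 feedback genes kept 4 lower and 3 higher, and 0 of the named calls changed.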
